A study of Rattus norvegicus with 12 samples.

Results

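The transcripts described here are 10 genes of the inflammatory response driven by NF-kB, found by gene symbol among the 13733 genes of the table: Nfkb1, Nfkb2, Relb, Nfkbia, Tnfaip3, Cxcl1, Ccl2, Icam1, Sod2 and C3. All 10 were measured. The symbols were taken as a named family and not for their values, but they were chosen with earlier results of these data known. RNA was sequenced from dispersed pancreatic islet cells of 3-month-old Wistar rats. All rats were male, per the methods. Cells were transfected with 30 pmol of a single-stranded antisense oligonucleotide against mt-tRF-LeuTAA, a piece cut from the leucine tRNA that mitochondrial DNA encodes, or with a scrambled oligonucleotide (anti-control), and RNA was extracted 72 h later. Each group had 6 libraries, numbered 1 to 6, and the study states that the islets came from 6 rats. Both groups therefore went through islet isolation, dispersion, lipid transfection and culture, and no untransfected cells were analysed here. The labels name no rat. That each number is 1 rat given both oligonucleotides was inferred, and a preparation or batch shared by a number cannot be told apart from a rat.

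NF-kB is a family of dimeric transcription factors that inhibitory IkB proteins hold in the cytoplasm. Cytokines, microbial products and other stress signals activate IkB kinase, the inhibitor is degraded, and the freed dimers switch on genes of inflammation, among them the genes for their own subunits and inhibitors. In islets this pathway is best known for the response of beta cells to interleukin-1 beta and tumour necrosis factor, which includes the release of chemokines.

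The promoters are shown because the list was drawn up as NF-kB genes and the letters of the NF-kB consensus can be looked for directly. RefSeq promoters (build GRCr8, 250 bases before to 50 bases after the annotated start) were at hand for 8 of the 10 genes, the missing entries being Ccl2 and Relb. The NF-kB consensus decamer was searched on both strands, and overlapping matches on opposite strands were merged. It was found in 5 of the 8 promoters, compared with 7.51% of all 33469 promoters and 10.1% of the 10405 promoters of genes measured here. Because the genes were listed as NF-kB genes, a larger share follows from that choice and is not a result of these data. The match began 84 bases before the start of Cxcl1, 31 before that of Nfkbia, 20 before that of Nfkb2, and 170, 67 and 55 before that of Tnfaip3. In Nfkb1 it lay 3 bases after the start. The 250 bases before the start are given for Cxcl1 (chr14:17479322-17479571, minus strand), Nfkbia (chr6:78597073-78597322, minus), Tnfaip3 (chr1:15543980-15544229, minus) and Nfkb2 (chr1:255108124-255108373, plus), and 30 bases around the start for Nfkb1 (chr2:226805448-226805477, minus). Sequences run 5′ to 3′ and capitals mark the matched letters.
Cxcl1: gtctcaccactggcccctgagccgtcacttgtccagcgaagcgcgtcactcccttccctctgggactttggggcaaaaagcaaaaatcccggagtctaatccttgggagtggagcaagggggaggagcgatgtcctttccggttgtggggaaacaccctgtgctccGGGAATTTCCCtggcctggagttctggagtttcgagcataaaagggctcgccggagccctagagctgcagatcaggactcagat
Nfkbia: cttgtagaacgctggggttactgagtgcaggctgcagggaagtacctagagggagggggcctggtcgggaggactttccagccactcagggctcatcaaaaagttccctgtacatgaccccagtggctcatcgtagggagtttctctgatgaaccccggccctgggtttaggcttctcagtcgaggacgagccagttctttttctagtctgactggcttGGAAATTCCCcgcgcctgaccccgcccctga
Tnfaip3: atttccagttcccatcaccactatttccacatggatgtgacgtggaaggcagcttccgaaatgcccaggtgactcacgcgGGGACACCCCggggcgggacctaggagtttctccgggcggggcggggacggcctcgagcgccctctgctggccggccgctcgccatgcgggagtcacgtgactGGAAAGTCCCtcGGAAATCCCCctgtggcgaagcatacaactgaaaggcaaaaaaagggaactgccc
Nfkb2: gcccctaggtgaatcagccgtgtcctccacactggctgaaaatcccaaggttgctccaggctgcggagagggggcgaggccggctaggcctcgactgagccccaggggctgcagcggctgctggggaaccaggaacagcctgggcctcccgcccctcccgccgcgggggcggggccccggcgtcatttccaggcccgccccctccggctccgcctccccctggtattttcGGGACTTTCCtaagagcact
Nfkb1: tgctctctcgacgtcagtGGGAATTTCCag
A match is a description of the letters only, and binding was not measured.

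The libraries held 17.6 to 23.4 M (mega) reads in anti-control cells and 16.4 to 20.3 M in anti-mt-tRF-LeuTAA cells (exact two-sided permutation test, p = 0.223). Markers of beta cells took 82971 to 164234 CPM (reads scaled to library size) in anti-control and 89032 to 154056 CPM in anti-mt-tRF-LeuTAA libraries, with 9 of 10 markers measured, of which 0 rose and 3 fell. Their sum was higher with the silencing oligonucleotide in 2 of 6 replicate numbers, and in replicate 1 it was 87966 CPM in anti-control and 154056 CPM in anti-mt-tRF-LeuTAA cells. Macrophage markers (14 of 15 measured) summed to 94.4 to 219.9 CPM in anti-control and 87.2 to 158 CPM in anti-mt-tRF-LeuTAA libraries, and 1 of them rose and 2 fell. Of 11 lymphocyte markers 3 were measured, with sums of 3.47 to 9.54 CPM and 4.27 to 7.31 CPM, whereas Cd3e, Cd79a and Ms4a1 were not among the genes analysed. In the same fit, described below, 17.6% of all genes rose and 17.7% fell. Since these are bulk samples, a change in the number of cells of a type and a change in RNA per cell cannot be told apart.

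After silencing of mt-tRF-LeuTAA, Cxcl1 rose 7.06-fold, Nfkbia 2.40-fold and Tnfaip3 2.26-fold, and Icam1 and Nfkb1 rose by 1.50-fold and 1.37-fold. Sod2 (1.45-fold) and Nfkb2 (1.19-fold) were also called higher and the chemokine gene Ccl2 (1.49-fold) lower, and these 3 calls were lost under several alternatives. In all, 7 of the 10 genes rose, 1 fell and 2 (Relb and C3) did not pass the test, where 17.6% of all genes rose, 17.7% fell and 35.3% changed in either direction. The median log2 fold change was 0.50 over the 10 genes and -0.04 over all genes. These calls come from limma with the replicate number as a block, at a Benjamini-Hochberg adjusted p of at most 0.05 over all genes. Without the block, 0 of the 10 rose and 0 fell, where 10.9% of all genes rose, 4.65% fell and 15.5% changed in either direction. 1 of the 10, Nfkbia, had an unadjusted p under 0.05 in that fit, as did 3883 genes in all. Every call for the 10 genes therefore depended on the pairing of libraries by replicate number. Of the 10 genes, 5 were higher after silencing in 6 of 6 pairs, against 17.3% of all genes, and 0 were lower in 6 of 6 pairs, against 16.6% of all genes. Cxcl1, Nfkbia and Tnfaip3 rose at least 2-fold, as did 6.6% of all genes. Further, in 0 of the 10 did the groups not overlap, against 10.2% of all genes.

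**Figure D1:**
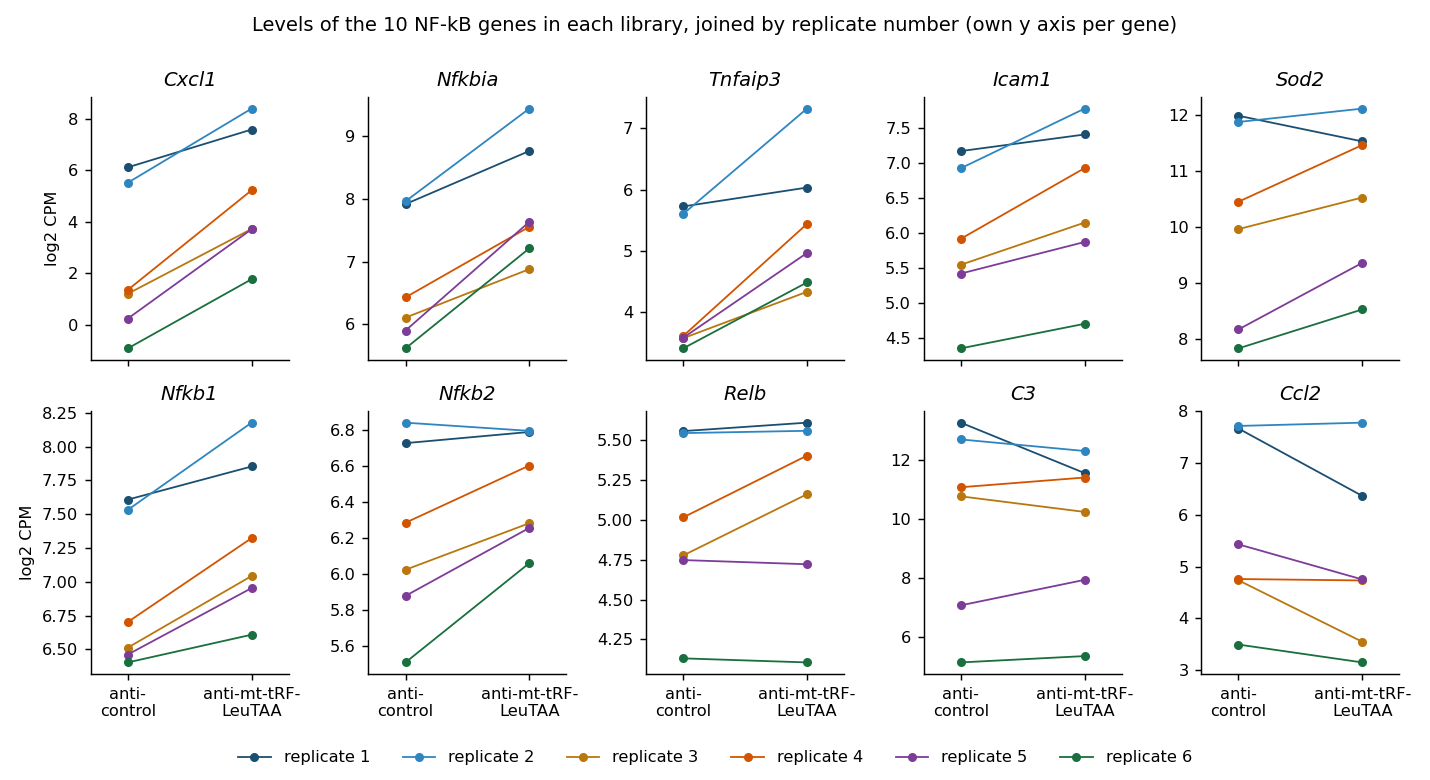
Level of each of the 10 genes (y axis, log2 CPM, own scale for each gene) in the 6 anti-control and the 6 anti-mt-tRF-LeuTAA libraries (x axis), with lines joining libraries of the same replicate number. Lines of Cxcl1, Nfkbia, Tnfaip3, Icam1 and Nfkb1 rise in 6 of 6 pairs, and replicates 1 and 2 are the 2 highest libraries of each group for all 10 genes.

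Among the subunits, Nfkb1 (chr2:240773456-240866689 in Rnor_6.0) encodes the p105 precursor of p50. Its level ranged from 6.40 to 7.61 log2 CPM in anti-control libraries, with a median of 6.61. In anti-mt-tRF-LeuTAA libraries it ranged from 6.61 to 8.18 log2 CPM, with a median of 7.18. The groups overlapped, with replicates 1 and 2 high in both. Nfkb1 rose by a log2 fold change of 0.46 (SE 0.07, 95% interval 0.30 to 0.61), and the differences within pairs lay between 0.21 and 0.65. The limma adjusted p was 0.000901 with the block and 0.359 without it.

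Nfkb2 (chr1:266053002-266059256), whose p100 product is processed to p52 in the alternative branch of the pathway, had 5.51 to 6.84 log2 CPM in anti-control libraries (median 6.15) and 6.06 to 6.79 log2 CPM in anti-mt-tRF-LeuTAA libraries (median 6.44). The anti-mt-tRF-LeuTAA range lay wholly inside the anti-control range. Nfkb2 was higher in 5 of 6 pairs and rose by a log2 fold change of 0.25 (SE 0.08, limma adjusted p = 0.028, and 0.511 without the block). This call was lost on leaving out replicate 3, 4, 5 or 6, with adjusted p-values of up to 0.0859. Relb (chr1:80517411-80544825), the partner of p52 in the same branch, had 4.13 to 5.56 log2 CPM in anti-control and 4.11 to 5.61 log2 CPM in anti-mt-tRF-LeuTAA libraries, with medians of 4.90 and 5.28. Its log2 fold change was 0.13, with a 95% interval of -0.04 to 0.31 (limma adjusted p = 0.218), and 4 of 6 pairs were higher. A change of more than 0.31 on the log2 scale thus lay outside the interval for Relb.

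Both inhibitor genes had log2 fold changes above 1. Nfkbia (chr6:76267228-76270457) encodes IkB-alpha, the inhibitor that NF-kB itself switches on. Its level was 5.61 to 7.96 log2 CPM in anti-control libraries (median 6.27) and 6.88 to 9.44 log2 CPM in anti-mt-tRF-LeuTAA libraries (median 7.59). Here replicates 1 and 2 of the anti-control group, at 7.92 and 7.96, stood above 4 of the 6 silenced libraries, while every library was below its own silenced partner. Nfkbia rose by a log2 fold change of 1.26 (SE 0.13), with pair differences of 0.77 to 1.74 (limma adjusted p = 7.35e-05, and 0.132 without the block). An exact two-sided permutation test that flips the signs of the 6 differences gave p = 0.0312, which is the smallest value that 6 pairs allow, and the same value for Cxcl1, Tnfaip3, Icam1 and Nfkb1.

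Tnfaip3 (chr1:14402913-14412807) encodes A20, a ubiquitin-editing enzyme that dampens signalling upstream of IkB kinase. In 4 of the 6 anti-control libraries, replicates 3 to 6, its level stood between 3.41 and 3.61 log2 CPM, and in replicates 1 and 2 at 5.73 and 5.60. After silencing it was 4.33 to 7.32 log2 CPM with a median of 5.20. The smallest difference was that of replicate 1 (0.31) and the largest that of replicate 4 (1.83). Tnfaip3 rose by a log2 fold change of 1.18 (SE 0.18, limma adjusted p = 0.00105, and 0.204 without the block).

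Among the targets in the set of 10, the largest difference was that of Cxcl1 (chr14:18743685-18745457), which encodes a chemokine that attracts neutrophils. Anti-control libraries 1 to 6 had 6.12, 5.52, 1.20, 1.35, 0.23 and -0.93 log2 CPM of Cxcl1, and the silenced libraries of the same numbers had 7.59, 8.41, 3.72, 5.23, 3.71 and 1.77 log2 CPM. Replicates 1 and 2 were far above the other libraries of their group, and the anti-control libraries alone spanned 132-fold. The counts behind these values ran from 8 reads in anti-control replicate 6 to 5886 in silenced replicate 2. Cxcl1 was higher in 6 of 6 pairs, by 1.47 in replicate 1 and by up to 3.88 in replicate 4 on the log2 scale. The log2 fold change was 2.82 (SE 0.26, 95% interval 2.24 to 3.40), and the limma adjusted p was 4.25e-05 with the block and 0.214 without it.

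Ccl2 (chr10:69412017-69413870), the monocyte chemokine, moved the other way. Its level was 3.50 to 7.71 log2 CPM in anti-control libraries (median 5.09) and 3.15 to 7.77 log2 CPM after silencing (median 4.74), so the silenced range contained the anti-control range. It was higher in 1 of 6 pairs, with differences of -1.30 in replicate 1, -1.18 in replicate 3, -0.68 in replicate 5, -0.34 in replicate 6, -0.03 in replicate 4 and 0.06 in replicate 2. Ccl2 fell by 0.58 on the log2 scale (SE 0.18, limma adjusted p = 0.0308, and 0.741 without the block). Leaving out replicate 1, 3 or 5 gave adjusted p-values of 0.0543, 0.0891 and 0.08.

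Icam1 (chr8:22035256-22047059), an adhesion molecule to which leukocytes bind, had 4.35 to 7.17 log2 CPM in anti-control libraries (median 5.73) and 4.70 to 7.78 log2 CPM after silencing (median 6.54). The 2 ranges overlapped over most of their length, whereas 6 of 6 pairs were higher, by 0.24 to 1.01. Icam1 rose by a log2 fold change of 0.58 (SE 0.10, limma adjusted p = 0.00169, and 0.562 without the block).

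Sod2 (chr1:47914759-47921587), the manganese superoxide dismutase of mitochondria, had 7.83 to 11.99 log2 CPM in anti-control libraries (median 10.20) and 8.52 to 12.11 log2 CPM after silencing (median 10.99). It was higher in 5 of 6 pairs and 0.46 lower in replicate 1. Sod2 rose by a log2 fold change of 0.54 (SE 0.18, limma adjusted p = 0.0466, and 0.737 without the block). The call was kept only without replicate 1 (adjusted p = 0.00119) and was lost on leaving out any other replicate, with adjusted p-values of up to 0.143.

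C3 (chr9:9721105-9747167), the central component of complement, varied most between replicate numbers. Its anti-control level was 5.13 log2 CPM in replicate 6 and 13.26 in replicate 1, a span of 279-fold, with a median of 10.91. After silencing it was 5.35 to 12.30 log2 CPM with a median of 10.81. It was higher in 3 of 6 pairs, and the differences ran from -1.71 in replicate 1 to 0.86 in replicate 5. The log2 fold change of C3 was -0.20, with a 95% interval of -0.81 to 0.40 (limma adjusted p = 0.593). Without replicate 1 the value was 0.10.

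**Figure D2:**
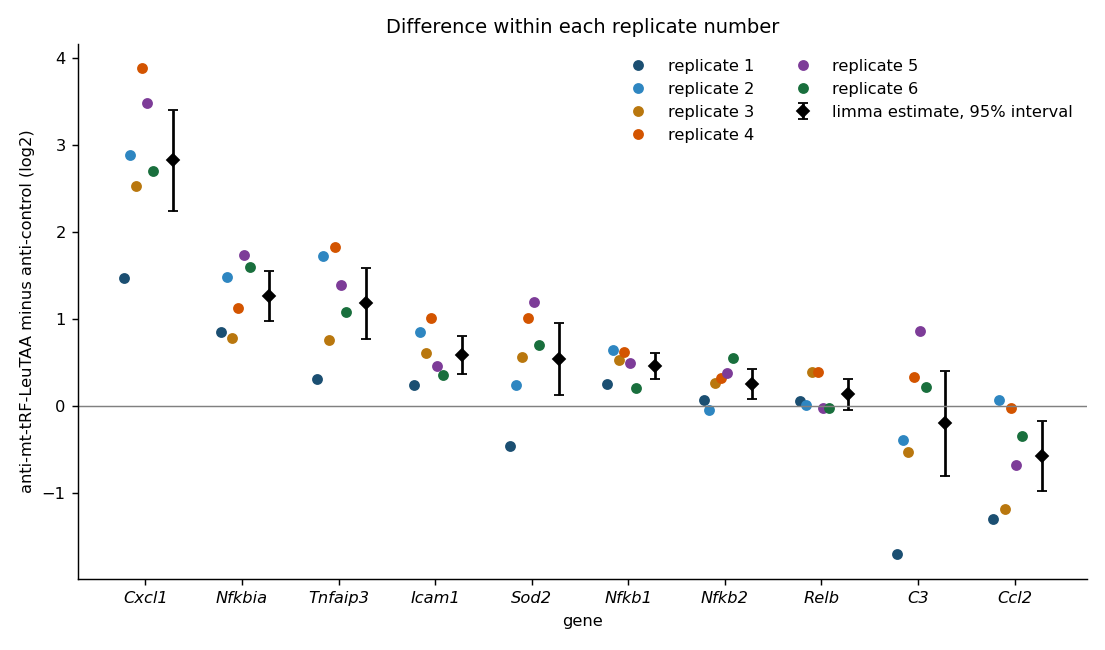
Difference in log2 CPM between the anti-mt-tRF-LeuTAA and the anti-control library of each replicate number (y axis) for the 10 genes (x axis), with the limma estimate and its 95% interval as a diamond. All 6 points of Cxcl1, Nfkbia, Tnfaip3, Icam1 and Nfkb1 lie above 0, and replicate 1 gives the lowest point for C3, Ccl2 and Sod2 at -1.71, -1.30 and -0.46.

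For all 10 genes the replicate number, with 6 levels, took more of the spread between libraries than the oligonucleotide, with 2 levels. A factor with more levels takes a larger share even of noise, so this order alone says little about the 10 genes. Replicates 1 and 2 were the 2 highest libraries for 10 of the 10 genes in anti-control cells and for 10 of 10 after silencing, and replicate 6 was the lowest for 10 and 8 of them. The 6 anti-control libraries spanned over 4-fold for 7 of the 10 genes. The share of all genes with this order or span was not counted. The range of the replicate means had a median of 2.67 log2 units over the 10 genes and 0.60 over all genes. Across genes, anti-control replicates 1 and 2 differed by a chi-square per degree of freedom of 19.1. Their values against replicates 3 to 6 were 144 to 258. In silenced cells replicates 1 and 2 differed by 81.6, and replicates 1 and 4 by 55.4. The replicate number took a median of 87.3% of the sum of squares of log2 CPM over the 12 libraries, compared with 62.3% over all genes, and 5 of the 10 genes lay above the 90th percentile of all genes (89.4%). C3 (97.6%) and Relb (95.3%) had the highest shares, and Nfkbia (65.3%), Tnfaip3 (69.5%) and Cxcl1 (73.8%) had the lowest. The oligonucleotide took 31.9% of the sum of squares for Nfkbia, 25.3% for Tnfaip3, 24.4% for Cxcl1 and 0.142% for C3.

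**Figure D3:**
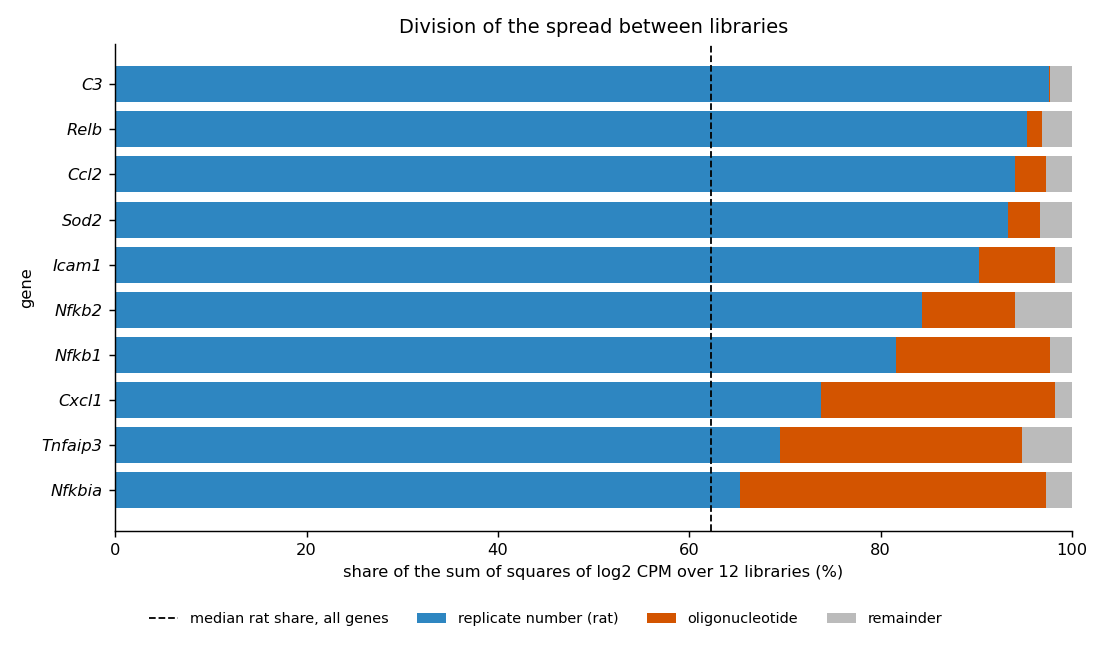
Share of the sum of squares of log2 CPM over 12 libraries (x axis, percent) taken by the replicate number, the oligonucleotide and the remainder for each of the 10 genes (y axis), with a dashed line at the median share of the replicate number over all genes (62.3%). All 10 bars of the replicate number pass the dashed line, from 65.3% for Nfkbia to 97.6% for C3.

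Markers of other cells also differed between libraries. Endothelial markers, 10 of 11 measured, summed in anti-control libraries 1 to 6 to 1013, 772, 199.7, 299.7, 257 and 57.6 CPM, and in silenced libraries to 974, 964, 181, 418, 281 and 99.8 CPM. Replicates 1 and 2 were thus the highest and replicate 6 the lowest in both groups for endothelial markers. Between the groups the endothelial sums gave an exact two-sided permutation p of 0.751 with the pairs ignored. By gene, 3 of the endothelial markers rose and 0 fell, where 17.6% of all genes rose and 17.7% fell. An exact permutation test flipping the signs of the 6 log differences within pairs gave p = 0.188 for the endothelial sums. The part of endothelial markers in the levels of the 10 genes was not tested.

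Ductal markers, 7 of 10 measured, stood lower with the silencing oligonucleotide: they summed to 365 to 556 CPM in anti-control and 329 to 425 CPM in silenced libraries (means 467 and 384 CPM), and were lower in 6 of 6 pairs (exact two-sided permutation p = 0.0238, and 0.214 after Benjamini-Hochberg adjustment over the 9 marker lists). That permutation test ignored the pairs. An exact permutation test flipping the signs of the 6 log differences within pairs gave p = 0.0312 for ductal markers. This is the smallest value that 6 pairs allow, and it was not adjusted over the 9 lists. By gene, 0 of the ductal markers rose and 1 fell, where 17.6% of all genes rose and 17.7% fell. Stromal markers, 10 of 11 measured, were higher in 1 of 6 pairs (means 4146 and 3364 CPM), and 0 rose and 2 fell. For stromal sums the exact permutation p was 0.437 with the pairs ignored. The exact permutation test flipping signs within pairs gave p = 0.0625 for them. Acinar markers, 6 of 13 measured, were higher in 5 of 6 pairs (means 16.4 and 23.0 CPM), and 2 rose and 0 fell. For acinar sums the exact permutation p was 0.314 with the pairs ignored. The exact permutation test flipping signs within pairs gave p = 0.0625 for them. The acinar genes Prss1, Cpb1 and Pnlip were not among the genes analysed. Schwann cell markers, 6 of 6 measured, were higher in 3 of 6 pairs, and 0 rose and 0 fell. The part of these cells in the changes of the 10 genes was not tested.

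The markers of alpha, delta and PP cells, 8 of 8 measured, summed to 2803 CPM in anti-control replicate 1 and 23352 CPM in silenced replicate 1, while the pair of replicate 2 had 2492 and 4167 CPM. Beta cell markers summed to 87966 CPM in anti-control replicate 1 and 154056 CPM in silenced replicate 1, and were higher in 2 of 6 pairs. After removal of group means, anti-control replicate 1 correlated better across genes with silenced replicate 2 (0.73) than with its own partner (0.519). In this pair C3 and Ccl2 had their largest falls and Sod2 its only fall, and Cxcl1, Tnfaip3 and Icam1 their smallest rises. The part of the markers in these differences was not tested. Without the pair of replicate 1, Cxcl1, Nfkbia, Tnfaip3, Icam1 and Nfkb1 kept their calls.

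**Figure D4:**
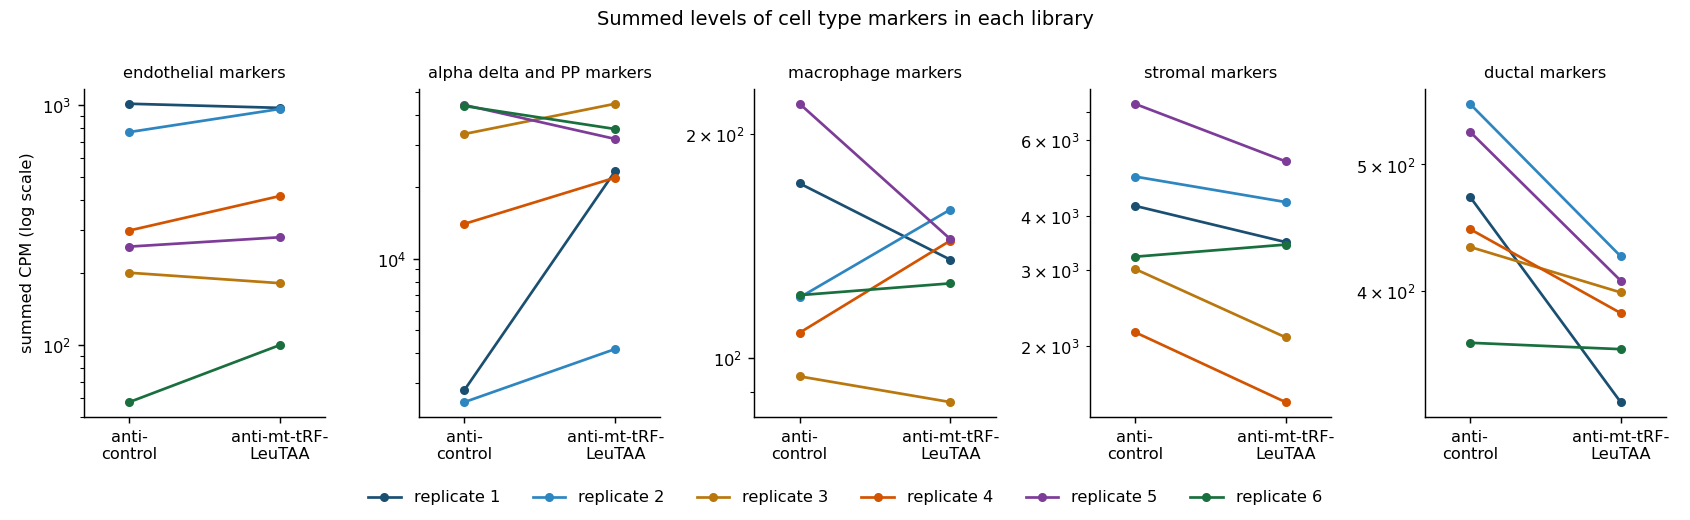
Summed level of the markers of endothelial cells, of alpha, delta and PP cells, of macrophages, of stromal cells and of ductal cells (y axes, CPM on a log scale) in each library (x axis), with lines joining libraries of the same replicate number. Endothelial markers are highest in replicates 1 and 2 of both groups, and the sum of alpha, delta and PP markers is 2803 CPM in anti-control and 23352 CPM in silenced replicate 1, and ductal markers are lower in 6 of 6 pairs.

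Beyond the 10 genes, a list of 149 genes of the pathway was examined, of which 134 were measured. With the block, 27 of the 134 rose and 16 fell, against 17.6% and 17.7% of all genes, and their median log2 fold change was 0.01. Without the block 8 rose and 2 fell, against 10.9% and 4.65% of all genes. The groups did not overlap for 4 higher and 2 lower genes of the 134, against 10.2% of all genes in either direction. By role, 1 of 18 receptors rose and 5 fell, 7 of 33 kinases and adaptors rose and 5 fell, 4 of 23 further subunits and inhibitors rose and 2 fell, 6 of 24 chemokine and cytokine targets rose and 2 fell, and 9 of 36 other targets rose and 2 fell. Named below are the called genes with the smallest adjusted p of each set, up to 4. Among kinases and adaptors and in both target sets all of those rose, so the genes that fell there are not named. Without the block 3 kinases and adaptors rose and 2 fell, and the groups did not overlap for 2 higher and 2 lower ones. Tnf and Il1b, the cytokines best known to activate the pathway, were not among the genes analysed here.

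**Figure D5:**
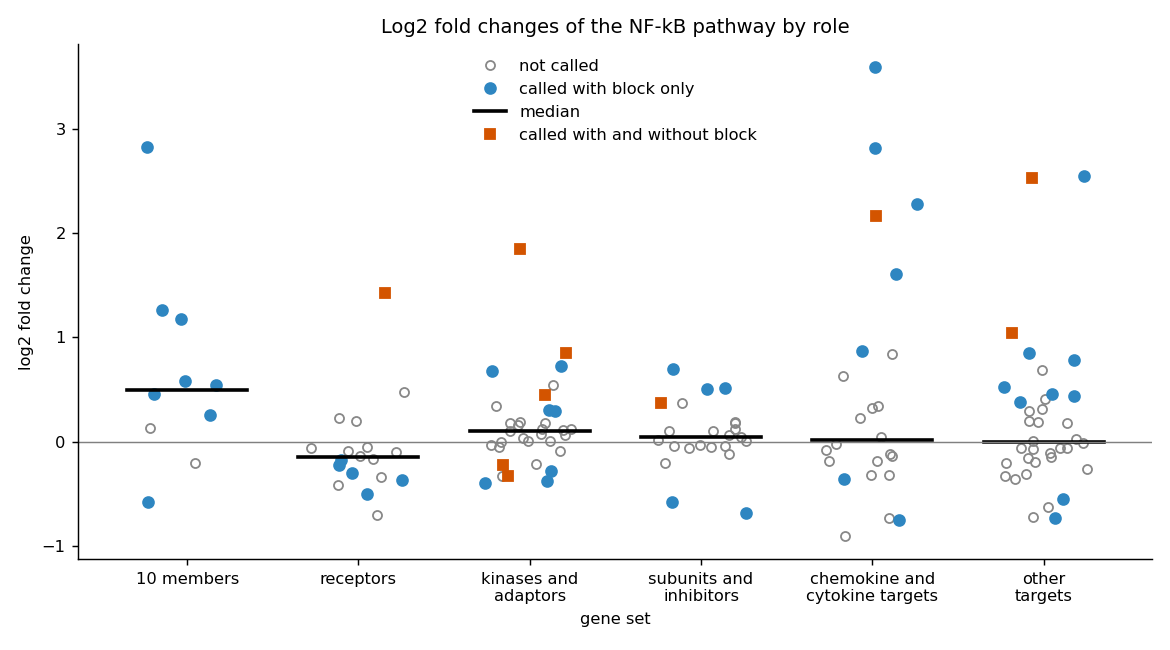
Log2 fold change of each measured gene (y axis) in the set of 10 genes and in 5 sets of pathway genes (x axis), marked by whether it was called with the block, with and without it, or not at all, with the median of each set as a bar. The median is 0.50 for the 10 genes and 0.01 over the 134 pathway genes, and 0 of the 10 genes is called without the block.

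Of the receptors, Ager, the receptor for advanced glycation end products, had 2.07 to 2.78 log2 CPM in anti-control libraries and 3.35 to 3.98 log2 CPM after silencing, with no overlap between the groups. It rose by a log2 fold change of 1.42 (SE 0.11, limma adjusted p = 1.61e-05, and 4.81e-05 without the block). Ager starts 0.47 kb downstream of Pbx2 on the same strand. Il1rap, the accessory chain of the interleukin-1 receptor, fell by 0.50, the double-stranded RNA receptor Tlr3 by 0.37 and the interleukin-17 receptor chain Il17ra by 0.18 on the log2 scale. All 3 were lower in 6 of 6 pairs and none passed without the block, and Il17ra and Tlr3 were not called after scaling by summed reads (limma adjusted p = 0.191 and 0.0699). Tlr3 also lost its call on leaving out replicate 2 (limma adjusted p = 0.0675) or 5 (0.0641).

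Among kinases and adaptors, Map3k14 encodes NIK, the kinase that starts the processing of p100. Its groups did not overlap, with 3.40 to 3.66 log2 CPM in anti-control and 4.17 to 4.60 log2 CPM in anti-mt-tRF-LeuTAA libraries. Map3k14 rose by a log2 fold change of 0.85 (SE 0.10, limma adjusted p = 0.000226, and 2.52e-05 without the block). Unlike the 10 genes, Map3k14 spanned only 1.20-fold among the anti-control libraries. Card9, an adaptor for receptors of fungal products, had -0.42 to 1.13 log2 CPM in anti-control and 2.02 to 2.80 log2 CPM in silenced libraries, also with no overlap. Card9 rose by a log2 fold change of 1.84 (SE 0.23, limma adjusted p = 0.000263, and 0.000522 without the block). Card9 lies 2.69 kb downstream of Snapc4 on the same strand. The adaptor Traf2 rose by 0.45 and the interleukin-1 receptor-associated kinase Irak2 by 0.73 on the log2 scale, each in 6 of 6 pairs, and Traf2 was also called without the block (limma adjusted p = 0.0248). That call held in 7 of 12 fits without the block and 1 library, and was lost without anti-control replicate 3, 4, 5 or 6 or silenced replicate 1, with adjusted p-values of up to 0.0551.

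Of the further inhibitors, Nfkbib, which encodes IkB-beta, rose by 0.50 in 6 of 6 pairs, and Nfkbiz, which encodes the nuclear IkB-zeta, rose by 0.70 in 5 of 6 pairs. Nkiras1, a small GTPase-like protein that binds IkB, fell by 0.57 in 6 of 6 pairs. The deubiquitinase Usp21 rose by 0.37 in 6 of 6 pairs and was also called without the block (limma adjusted p = 0.0038 and 0.0245). The call of Usp21 without the block held in 9 of 12 fits with 1 library left out, and was lost without anti-control replicate 1 or silenced replicate 1 or 4, with adjusted p-values of up to 0.0597.

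Among the chemokine and cytokine targets, Il23a, a subunit of interleukin-23, had -0.22 to 2.34 log2 CPM in anti-control and 2.97 to 4.14 log2 CPM in anti-mt-tRF-LeuTAA libraries, with no overlap, and rose by a log2 fold change of 2.16 (SE 0.29, limma adjusted p = 0.000484, and 0.00119 without the block). Ccl20, a chemokine for cells bearing CCR6, rose by 2.81 (SE 0.40) in 6 of 6 pairs, but from few reads: anti-control replicates 5 and 6 had 0 reads and silenced replicate 2 had 182. Its log2 fold change was 1.81 with a prior count of 5 and 1.71 after quantile normalization, with the call kept. Cxcl2, which like Cxcl1 attracts neutrophils and lies 10.3 kb downstream of it on the same strand, rose by 2.27 (SE 0.38) with 0 to 446 reads per library, and by 1.55 and 1.27 under the same alternatives. Tnfsf15, a cytokine of the tumour necrosis factor family, rose by 1.61 (SE 0.33), and by 1.15 after quantile normalization. It did not rise in replicate 1, with 94 reads in anti-control and 86 in silenced cells, and anti-control replicate 3 had only 5 reads. Of these 4, Il23a alone was called without the block. Over all genes, 0 reads were more frequent in every anti-control library than in any silenced library. The part of that difference in the rises of these scarce genes was not tested.

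Among other targets, Mmp13, a collagenase, rose by 2.55 (SE 0.39) in 6 of 6 pairs, and its anti-control libraries spanned 56.5-fold, from replicate 6 at 0.16 to replicate 1 at 5.98 log2 CPM. The stress gene Gadd45b rose by 0.78, the transcription factor Irf1 by 0.38 and the immunoproteasome subunit Psmb10 by 0.46, each in 6 of 6 pairs. None of these 4 was called without the block (limma adjusted p = 0.0876 for Mmp13).

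Total RNA libraries can hold reads that run past the end of a gene, so neighbours were listed. An expressed gene on the same strand ended within 50 kb upstream of 4 of the 10 genes, compared with 41.2% of all genes. These were Gpr108 before C3 (6.35 kb), Mrpl4 before Icam1 (8.03 kb), Gbf1 before Nfkb2 (19.8 kb) and Clptm1 before Relb (4.22 kb). For Cxcl1, Nfkbia, Tnfaip3, Nfkb1, Sod2 and Ccl2 the nearest such gene lay further off. Of the 134 pathway genes measured, 53 had such a neighbour within 50 kb, and only those of Ager, Card9 and Cxcl2 are named above. The part of neighbouring genes in the levels was not tested.

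The genes with the pattern most like that of Cxcl1 over the 12 libraries, among 11846 genes at or above a mean of 1 log2 CPM and leaving out the 10 genes, were Nfkbiz (Pearson r = 0.98), Dyrk2 (0.97), Rel (0.97), Mafk (0.96) and Dusp16 (0.96). For Nfkbia they were Dyrk2 (0.99), Ier5 (0.97), Csrnp1 (0.97), Sdad1 (0.96) and Mafk (0.96). Within the 10 genes, Nfkb1 was the most like Cxcl1 (r = 0.98) and Ccl2 the least (0.72). The libraries share replicate numbers, so these values describe the order of replicates as well as the oligonucleotides and carry no test.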

How the data were processed

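RNA was measured in 12 libraries of dispersed rat islet cells, prepared with a stranded total RNA kit per the labels. The submitters' notes list HTSeq 0.9.1, STAR 2.5.3a and cutadapt 1.8 beside R 4.0.3 with limma 3.44.3, and edgeR is also named among the tools of the authors, with the build Rnor_6.0. The strand setting was not stated in the sources used here. Values deposited by the authors were log2 CPM with a prior count of 1, for 13733 genes. They were relative to an effective library size, recovered here as 0.918 to 1.10 times the summed reads of the listed genes. The deposited values gave back whole reads within 5.94e-08 of a read. Their own fold changes and p-values, also in the table, were not used. All 12 library columns matched the labels.

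Levels were compared with limma 3.58.1 (R 4.3.3) on the deposited log2 values of all genes, with an intensity trend, the replicate number as a block and Benjamini-Hochberg adjustment, and the script was tested on simulated data. Fold changes on this scale are understated for scarce genes. Same-numbered libraries correlated by 0.474 to 0.763 after removal of group means (median 0.628), and the best match of each library was its own number in 5 of 6 anti-control cases and in all 6 silenced ones. The pairing itself was set beforehand, from the replicate numbers and the 6 rats of the study. Sign-flip tests over pairs had 64 arrangements and permutation tests 924 splits. Replicates differed by a chi-square per degree of freedom of 19.1 to 258, so none agreed within counting noise.

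The members and lists were chosen with earlier results of these data known. The 10 genes were all named. Of each pathway set, up to 4 called genes with the smallest adjusted p were named, and the 5 genes most correlated with Cxcl1 and with Nfkbia. Alternatives were the fit without the block, no intensity trend, a filter at the median level of all genes, a prior count of 5, upper-quartile scaling, quantile normalization, limma-voom on the recovered reads, each pair or library left out, and scaling by summed reads alone, the last chosen after seeing the data. Promoter sequences are from RefSeq (GRCr8), and gene coordinates in the text are otherwise those of the deposited table.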

Additional observations from a re-analysis of the deposited data

Results flagged for a closer look

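Of 60 groups of 6 libraries tested (30 named genes in both oligonucleotide groups), 1 held a library far from the others, and chance flags about 1 in 20 groups. Nfkbib in anti-mt-tRF-LeuTAA replicate 2 stood at 5.56 log2 CPM, with the nearest other library at 5.09 and the lowest at 4.86. The gap took 0.678 of the range, above the critical value of 0.625.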

How the results depend on the processing

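Cxcl1, Nfkbia, Tnfaip3, Icam1 and Nfkb1 kept direction and call in each alternative with the replicate block that tested them and on leaving out each pair. Without the block these genes kept their direction in every fit and their call in none. Of the 10 genes, 0 rose and 0 fell with no replicate block (main 7 and 1), 0 fell without the intensity trend, and 0 fell under scaling by summed reads alone. Of the pathway list, 8 rose and 2 fell with no replicate block (main 27 and 16), 13 and 10 among genes at or above the median level, where fewer genes were tested, and 8 fell under scaling by summed reads. Of all genes, 1494 rose and 638 fell with no replicate block (main 2412 and 2431), 1066 rose at or above the median level, and 1413 fell under scaling by summed reads. Higher genes made up 49.8% of calls in the main fit, 60.0% under upper-quartile scaling, 67.5% under summed reads, 70.1% with no block and 36.7% at or above the median level. The median of all genes lay between -0.07 and 0.04 under every scaling. Leaving out a pair, 5 to 7 of the 10 genes rose and 0 to 1 fell, 23 to 35 pathway genes rose and 12 to 16 fell, and 1964 to 2531 of all genes rose and 1734 to 2646 fell. Without the block and a library, 0 of the 10 rose and 0 fell, 5 to 13 pathway genes rose and 1 to 2 fell, and 1283 to 1480 of all genes rose and 445 to 718 fell. C3 changed sign without replicate 1 (0.10) and, without the block, on leaving out anti-control replicate 1 (0.45), 2 (0.34) or 4 (0.011) or, from the silenced group, replicate 5 (0.17) or 6 (0.69), with a range of -1.18 to 0.69 over all libraries or pairs left out. Relb changed sign without anti-control replicate 6 (-0.035, range up to 0.33). Without the trend Sod2, Ccl2, Nfkb2 and Tlr3 lost their calls (limma adjusted p = 0.0954, 0.0743, 0.0676 and 0.0513), as did Ccl2 under summed reads (0.0715). The cause was not tested. Few reads limit the folds of Ccl20 and Cxcl2, with 0 reads in some anti-control libraries, and of Cxcl1, with 8 in anti-control replicate 6. Anti-control libraries were not the shallower group, with 17.6 to 23.4 M reads against 16.4 to 20.3 M. Yet at least 116 genes had 0 reads in each anti-control library, and at most 18 in each silenced library. The part of this difference in the rises of scarce genes was not tested.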
